A study of Homo sapiens with 6 samples.

Results

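The genes described here are 10 components of the circadian clock, PER1, PER2, PER3, CRY1, CRY2, CLOCK, NR1D1, NR1D2, BHLHE40 and NFIL3. They were taken by gene symbol, and all 10 were found among the 18216 genes with expression values. The values come from REH, an established human cell line of B-cell acute lymphoblastic leukemia, kept for 24 h in DMSO alone or in SNS-032 at 200 nM, each condition being sequenced as 3 libraries. SNS-032 (spelled SNA-032 in the treatment label) inhibits CDK9, which releases RNA polymerase II into productive elongation, and further cyclin-dependent kinases. Both groups are the same line, and no genetic change is named for either. The labels do not say whether the 3 libraries of a group came from separate cultures, so the p-values measure only the spread between these libraries, which may be technical. No step that synchronises the clock is described, and each group was sampled at a single time, so these values are levels averaged over a culture and say nothing of a rhythm.

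The mammalian clock is a loop of transcription and feedback found in nearly every cell type, blood cells included. CLOCK and BMAL1 (listed here under its gene name ARNTL) bind E-box sequences as a pair and activate the PER and CRY genes, whose protein products return to the nucleus and inhibit that pair. A connected loop runs through the nuclear receptors REV-ERB alpha and beta, encoded by NR1D1 and NR1D2, which repress ARNTL, while BHLHE40 (also called DEC1) competes at E-boxes and NFIL3 (also called E4BP4) represses at D-box sequences that DBP, TEF and HLF activate.

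Levels are FPKM, fragments scaled by transcript length and by the number of mapped fragments of a library, so that levels of different genes can be set side by side. FPKM are relative to the library, so that fewer expressing cells and less RNA per cell cannot be told apart, nor a change in the RNA of all cells be seen. Read counts were not used here. From the smallest steps between the values of short genes with a single transcript, the SNS-032 libraries held about 0.729 times as many fragments as the DMSO libraries. Of 11 markers of precursor B cells, 10 had a mean of at least 1 FPKM in each group, MME being the exception, and their summed level was 1143 to 1232 FPKM with DMSO and 960 to 1056 FPKM with SNS-032. Markers of T cells summed to 0.35 to 0.42 FPKM with DMSO and 2.43 to 4.35 FPKM with SNS-032, and those of myeloid cells to 8.20 to 8.65 and 18.7 to 21.6 FPKM. Erythroid and megakaryocyte markers summed to 2.20 to 2.44 and 7.0 to 7.81 FPKM, and markers of cells outside the blood to 3.11 to 3.61 and 7.53 to 7.86 FPKM. The part of these marker levels in the results was not tested.

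The clock genes did not move in a single direction after SNS-032. PER2, CRY2 and BHLHE40 rose, while CRY1, NR1D1, NR1D2, PER1, PER3 and NFIL3 fell, the fall of NFIL3 turning to a value above 0 when the libraries were shifted to equal medians. Changes were tested with limma on log2(FPKM + 1) over 12239 genes that reached a group mean of 1 FPKM with DMSO or with SNS-032, and were called at a Benjamini-Hochberg adjusted p under 0.05. Of the 10 clock genes, 3 were called higher, 6 lower and 1, CLOCK, was not called. Most genes of these cells were called, 89.2% of all tested (39.9% higher and 49.3% lower), so that 9 called among 10 is close to the share over all genes. The libraries of the groups did not overlap for those same 9 genes, beside 89.7% of all genes tested. All 10 passed the limit on low values, 9 of them in both groups and BHLHE40 through the SNS-032 group alone. The median log2 fold change was −0.29 over the clock genes and −0.14 over all genes tested, whose middle values reached from −0.84 (lower quartile) to 0.68 (upper quartile). PER2, CRY2 and BHLHE40 lay above that upper quartile, CRY1 and NR1D1 below the lower quartile, and the other 5 between them. In the SNS-032 libraries the median log2 level lay 0.30 below that of the DMSO libraries (a difference of −0.30), and shifting the libraries to equal medians raised every log2 fold change by about that amount. Under that shift the split over all genes turned from 4882 higher and 6032 lower to 6106 higher and 4699 lower. Among the clock genes, PER2, CRY2 and BHLHE40 stayed higher and CRY1, NR1D1 and NR1D2 stayed lower, PER1 and PER3 were no longer called, and CLOCK was called higher.

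**Figure D1:**
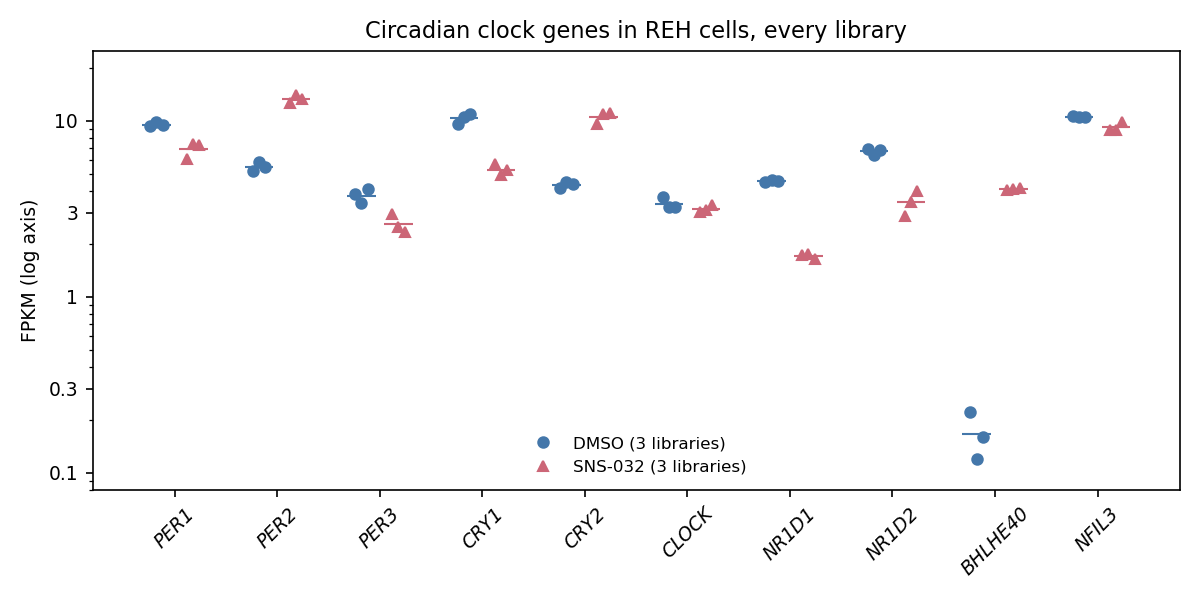
FPKM on a log axis of the 10 clock genes in every library, circles for the 3 DMSO libraries, triangles for the 3 SNS-032 libraries, and short lines for group means. Every SNS-032 library lay above every DMSO library for PER2, CRY2 and BHLHE40, which went from 0.167 to 4.08 FPKM, and the groups overlapped for CLOCK alone among the 10.

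**Figure D2:**
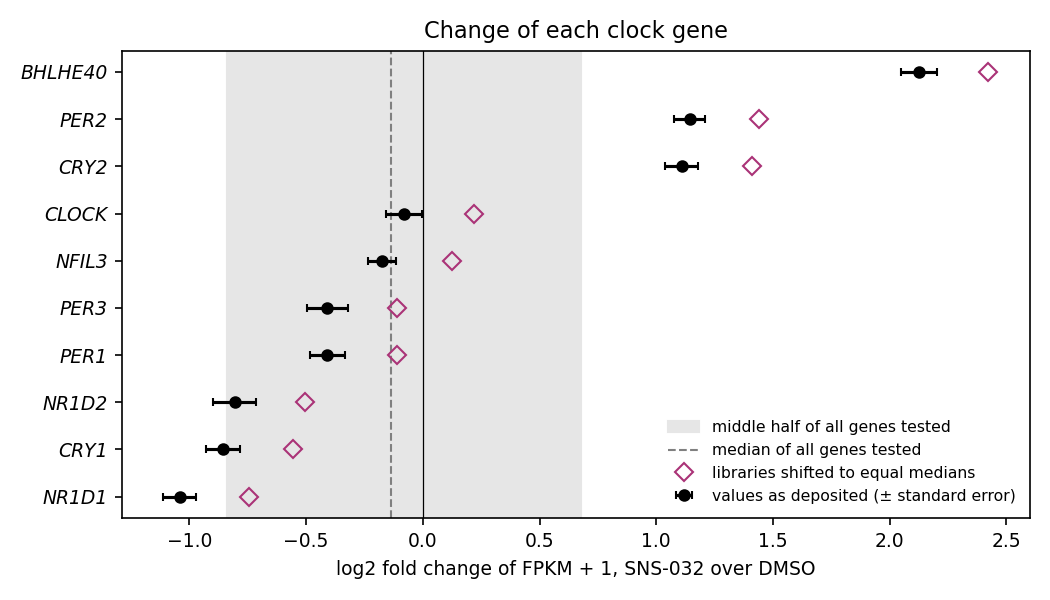
Log2 fold change of FPKM + 1, SNS-032 over DMSO, with its standard error (filled circles), and the same value after the libraries were shifted to equal medians (open diamonds). The gray band spans the quartiles of all 12239 genes tested, −0.84 to 0.68, and the dashed line is their median of −0.14. Both are drawn without the shift, which would move them up with the diamonds. Only PER2, CRY2 and BHLHE40 lay above this unshifted band by circle and by diamond.

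With DMSO the order of the levels, from high to low, was NFIL3, CRY1, PER1, NR1D2, PER2, NR1D1, CRY2, PER3, CLOCK and BHLHE40, by group means. Neighbours in this order whose libraries overlapped were NFIL3 and CRY1, CRY1 and PER1, and PER3 and CLOCK. With SNS-032 the order was PER2, CRY2, NFIL3, PER1, CRY1, BHLHE40, NR1D2, CLOCK, PER3 and NR1D1, and the libraries of CRY2 and NFIL3 and of NR1D2 and CLOCK overlapped. PER2 and CRY2 thus changed from the middle and lower part of the order to its top, and NR1D1 became the lowest. Among all genes tested, the SNS-032 means reached from the percentile 11.3 for NR1D1 to the percentile 62.0 for PER2, and BHLHE40 with DMSO was at the percentile 2.34.

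Because the feedback of the clock acts at short sequences near the start of its genes, the promoters of 6 members are shown, the 3 that rose, PER1 and CRY1 as paralogs of PER2 and CRY2 that fell, and NR1D2 as the member with most matches. The sequences are from RefSeq on GRCh38.p14, each from 250 bases before the start of transcription to the first 50 bases after it. They lie at chr2:238288561-238288860 (PER2, minus strand), chr17:8152355-8152654 (PER1, minus strand), chr11:45847225-45847524 (CRY2, plus strand), chr12:107093500-107093799 (CRY1, minus strand), chr3:4979187-4979486 (BHLHE40, plus strand) and chr3:23945871-23946170 (NR1D2, plus strand). Capitals mark the E-box CACGTG, its variant CACGTT (the E′-box), the D-box as TTATGTAA or TTACGTAA, and TAGGTCA, the core that REV-ERB and ROR receptors bind, each searched on both strands and with no overlap between matches.
PER2: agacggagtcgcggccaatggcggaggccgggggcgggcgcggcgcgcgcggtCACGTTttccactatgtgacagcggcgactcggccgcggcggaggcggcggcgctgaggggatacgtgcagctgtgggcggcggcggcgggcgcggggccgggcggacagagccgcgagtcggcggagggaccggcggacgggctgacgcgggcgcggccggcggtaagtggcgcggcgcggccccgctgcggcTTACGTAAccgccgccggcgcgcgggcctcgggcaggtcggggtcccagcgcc
PER1: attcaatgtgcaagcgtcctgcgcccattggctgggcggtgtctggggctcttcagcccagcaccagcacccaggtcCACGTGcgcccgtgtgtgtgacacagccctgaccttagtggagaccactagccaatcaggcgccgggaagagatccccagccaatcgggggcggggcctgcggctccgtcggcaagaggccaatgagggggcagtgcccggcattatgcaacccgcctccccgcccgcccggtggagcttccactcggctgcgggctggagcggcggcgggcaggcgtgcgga
CRY2: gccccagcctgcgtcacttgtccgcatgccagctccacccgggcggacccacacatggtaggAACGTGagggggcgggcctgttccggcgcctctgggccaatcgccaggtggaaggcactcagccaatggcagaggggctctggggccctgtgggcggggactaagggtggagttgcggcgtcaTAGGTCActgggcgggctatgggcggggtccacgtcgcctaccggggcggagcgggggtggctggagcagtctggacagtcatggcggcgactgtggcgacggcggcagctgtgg
CRY1: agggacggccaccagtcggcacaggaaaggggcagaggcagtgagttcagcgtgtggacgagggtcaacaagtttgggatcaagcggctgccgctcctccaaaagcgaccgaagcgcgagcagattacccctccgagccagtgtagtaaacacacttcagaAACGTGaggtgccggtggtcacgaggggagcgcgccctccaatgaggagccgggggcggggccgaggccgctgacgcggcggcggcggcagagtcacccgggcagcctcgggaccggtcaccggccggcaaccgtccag
BHLHE40: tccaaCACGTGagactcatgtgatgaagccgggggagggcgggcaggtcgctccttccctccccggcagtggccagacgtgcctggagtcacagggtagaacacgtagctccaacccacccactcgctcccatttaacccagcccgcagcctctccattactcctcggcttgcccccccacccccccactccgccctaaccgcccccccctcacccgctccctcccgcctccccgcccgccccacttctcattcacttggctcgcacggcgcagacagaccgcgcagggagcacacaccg
NR1D2: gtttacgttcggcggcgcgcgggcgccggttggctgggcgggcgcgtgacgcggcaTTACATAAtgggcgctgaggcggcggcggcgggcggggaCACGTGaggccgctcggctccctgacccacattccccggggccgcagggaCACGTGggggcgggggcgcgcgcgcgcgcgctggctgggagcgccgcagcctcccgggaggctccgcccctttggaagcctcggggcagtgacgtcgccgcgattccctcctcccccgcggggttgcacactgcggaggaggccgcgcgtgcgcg

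The canonical E-box stood in promoters of members that rose and of members that fell. It was found in BHLHE40, which rose, at base −245 from the start, and in PER1 and NR1D2, which fell, at base −173 and at bases −155 and −105. Over all 35116 promoters of the table, 7.26% hold it. The E′-box was found in PER2, CRY1, CRY2, CLOCK and NR1D1, and in 5.34% of all promoters. It too is shared by CRY2, which rose, and its paralog CRY1, which fell. A D-box, as TTATGTAA or TTACGTAA, was found in PER2, PER3 and NR1D2 and in 1.01% of all promoters. Other forms of the D-box were not searched, so a promoter without a match may hold one. The receptor core was found in CRY2 and NFIL3 and in 1.85% of all promoters. The cAMP response element TGACGTCA was in none of the 15 promoters of the members and in 1.85% of all. At least 1 of these motifs was found in 10 of those 15 promoters, at least 1 for each gene, against 16.2% of all promoters. These matches describe the letters in these windows and not binding in REH cells.

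Among the PER genes, whose proteins form the repressor complex with the CRY proteins, PER2 moved against PER1 and PER3. PER2 was at 5.19, 5.81 and 5.46 FPKM in the DMSO libraries and at 12.66, 14.01 and 13.29 FPKM in the SNS-032 libraries. PER1, which also responds quickly to hormones and cAMP in many cells, was at 9.30, 9.82 and 9.40 FPKM with DMSO and at 6.10, 7.39 and 7.31 FPKM with SNS-032. PER3 was at 3.81, 3.39 and 4.07 FPKM with DMSO and at 2.94, 2.48 and 2.34 FPKM with SNS-032. All SNS-032 libraries lay above all DMSO libraries for PER2 and below all of them for PER1 and PER3, as did the SNS-032 libraries of 40.2% (above) and 49.5% (below) of all genes tested. PER2 rose from 5.49 ± 0.311 to 13.3 ± 0.676 FPKM (SD, n = 3 each), 2.43-fold, with a log2 fold change of 1.14 (standard error 0.066, adjusted p = 6.3e-09 from limma). PER1 fell 1.37-fold, with a log2 fold change of −0.41 (standard error 0.075, adjusted p = 0.00024 from limma). PER3 fell 1.45-fold, also by 0.41 on the log2 scale (standard error 0.088, adjusted p = 0.000846 from limma). With the libraries shifted to equal medians, PER1 and PER3 had log2 fold changes of −0.11 each and were not called (adjusted p = 0.179 and 0.251 from limma). PER1 lies on chromosome 17 from 8140472 to 8156506, PER2 on chromosome 2 from 238244038 to 238290102 and PER3 on chromosome 1 from 7784320 to 7845177 (GRCh38, GENCODE 29). Exons of UTS2, a gene on the opposite strand, overlap 868 bases or 10.7% of the exons of PER3, but UTS2 was between 0 and 0.25 FPKM in all libraries. An antisense gene without expression values here overlaps 482 bases or 6.0% of the exons of PER3.

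The cryptochromes, which block the CLOCK and BMAL1 pair directly, exchanged their order. CRY1 was at 9.59, 10.47 and 10.93 FPKM in the DMSO libraries and at 5.70, 4.89 and 5.22 FPKM in the SNS-032 libraries. CRY2 was at 4.14, 4.49 and 4.38 FPKM with DMSO and at 9.61, 10.96 and 11.01 FPKM with SNS-032. Each DMSO library held more CRY1 than CRY2 per transcript length, and each SNS-032 library more CRY2 than CRY1. CRY1 fell from 10.3 ± 0.681 to 5.27 ± 0.407 FPKM (SD, n = 3 each), 1.96-fold, with a log2 fold change of −0.85 (standard error 0.073, adjusted p = 2.54e-07 from limma). CRY2 rose from 4.34 ± 0.179 to 10.5 ± 0.794 FPKM (SD, n = 3 each), 2.43-fold, with a log2 fold change of 1.11 (standard error 0.071, adjusted p = 1.6e-08 from limma). Both kept their calls with the libraries shifted to equal medians, with log2 fold changes of −0.56 and 1.41. CRY1 lies on chromosome 12 from 106991364 to 107093829 and CRY2 on chromosome 11 from 45847118 to 45883248 (GRCh38, GENCODE 29).

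Plain FPKM ratios of paralogs within a library do not depend on how the libraries are scaled, and they showed the same partition. CRY2 over CRY1 was 0.432, 0.429 and 0.401 in the DMSO libraries and 1.69, 2.24 and 2.11 in the SNS-032 libraries. PER1 over PER2 was 1.79, 1.69 and 1.72 with DMSO and 0.482, 0.527 and 0.55 with SNS-032. For both pairs the order of the paralogs was inverted in every SNS-032 library. PER2 over PER3 went from 1.34 to 1.71 with DMSO to 4.31 to 5.68 with SNS-032, whereas PER1 over PER3 overlapped between the groups, at 2.31 to 2.90 and 2.08 to 3.12. On the scale of log2(FPKM + 1) the CRY2 to CRY1 ratio rose by 1.96, the PER1 to PER2 ratio changed by −1.55 and the PER2 to PER3 ratio by 1.55. The 1 FPKM added leaves these log2 ratios, which were also the ones tested, with some dependence on the scaling. Of 14 ratios compared, the 5 between paralogs and each other member over CLOCK, 11 did not overlap between the groups. Of all single genes tested, 89.7% did not overlap, and no such share was computed for ratios of other genes. The 14 ratios reuse the same 10 genes and are not independent. BHLHE40 over CLOCK is among the 11, though BHLHE40 had to differ. Each of these 11 had p = 0.1 in a two-sided exact permutation test, the smallest value that 3 libraries against 3 allow, and an adjusted p of 0.127 over the 14 ratios, so none could pass 0.05. The 3 that overlapped were PER1 over PER3, NR1D1 over NR1D2 and NFIL3 over CLOCK (exact permutation p = 1, 0.3 and 0.2).

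CLOCK, the DNA-binding activator of the loop, was the member with the smallest change on the deposited scale. It was at 3.68, 3.23 and 3.23 FPKM with DMSO and at 3.01, 3.09 and 3.32 FPKM with SNS-032. The groups overlapped, with means of 3.38 ± 0.26 and 3.14 ± 0.161 FPKM (SD, n = 3 each). Its log2 fold change of −0.08 (standard error 0.076) did not pass the test (adjusted p = 0.327 from limma). With the libraries shifted to equal medians it was 0.22 and was called higher (adjusted p = 0.0179 from limma). The median over all genes tested was then 0.16, so that CLOCK lay near it under that shift too. CLOCK lies on chromosome 4 from 55427903 to 55547138 (GRCh38, GENCODE 29). Exons of TMEM165 on the opposite strand overlap 76 bases of its exons. Its partners moved in both directions. ARNTL, which encodes BMAL1, was at 7.53, 7.98 and 7.32 FPKM with DMSO and at 4.26, 5.03 and 4.65 FPKM with SNS-032, a change of −0.61 on the log2 scale (limma, adjusted p = 5.2e-06). NPAS2, a paralog that can replace CLOCK, fell by 0.77 on the log2 scale, from 2.89 to 1.28 FPKM, and ARNTL2, the paralog of ARNTL, rose from 1.77 to 3.38 FPKM, a log2 fold change of 0.66. These 3 calls held with the libraries shifted to equal medians. Of the 4 activators, CLOCK included, 1 was thus higher, 2 lower and 1 not called, with a median of −0.35. Over all genes tested, 39.9% were higher and 49.3% lower, so that counts of 4 genes do not set the activators apart.

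Both REV-ERB genes fell, and their libraries did not overlap between the groups. NR1D1, which encodes the heme-binding repressor REV-ERB alpha, was at 4.51, 4.63 and 4.55 FPKM with DMSO and at 1.73, 1.74 and 1.64 FPKM with SNS-032. NR1D2, which encodes REV-ERB beta, was at 6.92, 6.40 and 6.86 FPKM with DMSO and at 2.86, 3.47 and 4.0 FPKM with SNS-032. Of this pair, NR1D1 varied less between replicates than NR1D2 in both groups. NR1D1 fell from 4.56 ± 0.0611 to 1.70 ± 0.0551 FPKM (SD, n = 3 each), 2.68-fold, with a log2 fold change of −1.04 (standard error 0.07, adjusted p = 2.53e-08 from limma), the largest fall among the 10 genes on this scale. NR1D2 fell from 6.73 ± 0.284 to 3.44 ± 0.57 FPKM (SD, n = 3 each), 1.95-fold, with a log2 fold change of −0.81 (standard error 0.092, adjusted p = 3.8e-06 from limma). NR1D1 lies on chromosome 17 from 40092787 to 40100725 and NR1D2 on chromosome 3 from 23945260 to 23980618 (GRCh38, GENCODE 29). Exons of THRA, the thyroid hormone receptor gene on the opposite strand, overlap 263 bases or 9.5% of the exons of NR1D1. Whether the counting used the strand is not stated, so reads of this stretch cannot be assigned and both values are uncertain to that extent. THRA was at 6.06, 6.31 and 6.01 FPKM with DMSO and at 3.8, 4.08 and 3.85 FPKM with SNS-032.

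Receptors that share the binding core of the REV-ERB proteins and activate from it moved apart. RORA was at 0.31, 0.27 and 0.26 FPKM with DMSO and at 1.08, 1.00 and 0.95 FPKM with SNS-032 (limma, adjusted p = 6.4e-06). It passed the limit on low values through the SNS-032 group alone, so that it had to be higher and its p adds no support to the values. RORB fell from 2.78 to 1.20 FPKM, by 0.78 on the log2 scale. Among corepressors of the REV-ERB proteins, the levels fell for NCOR1 from 36.2 to 16.1 FPKM and TBL1X, a subunit of the same complex, from 6.51 to 2.09 FPKM. Of the 9 receptor and corepressor genes tested of 10 listed, 1 was higher and 8 lower, beside 39.9% higher and 49.3% lower over all genes tested, and the median log2 fold change was −0.83 beside −0.14. With the libraries shifted to equal medians, 1 was higher and 7 lower. The 1 higher was RORA, and NR1D1 and NR1D2, described above, were among the lower. The list was chosen with earlier results of these data known, so these counts only describe it.

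BHLHE40, a repressor that binds E-boxes and that many stress signals induce, had the largest change of the 10 genes. It was at 0.22, 0.12 and 0.16 FPKM in the DMSO libraries and at 4.03, 4.09 and 4.13 FPKM in the SNS-032 libraries. The DMSO values correspond to about 9.3 to 17.6 fragments per library as read from the steps between low values, against about 214 to 251 with SNS-032. The mean rose from 0.167 ± 0.0503 to 4.08 ± 0.0503 FPKM (SD, n = 3 each), 24.5-fold. The log2 fold change was 2.12 on the scale of log2(FPKM + 1) (standard error 0.076, adjusted p = 1.1e-10 from limma) and 3.99 on the scale of log2(FPKM + 0.1), since the value added before the logarithm weighs on a gene this low. BHLHE40 entered the test only through the SNS-032 group, where it is high, so that it had to differ and its p adds no support to the values. Of the 12239 genes, 352 had a larger rise on the first scale. BHLHE40 lies on chromosome 3 from 4979116 to 4985323 (GRCh38, GENCODE 29). Its paralog BHLHE41 was at 0.68, 0.73 and 0.59 FPKM with DMSO and at 0.19, 0.20 and 0.07 FPKM with SNS-032, below the limit for testing. BHLHE40 was the lowest of the 10 genes in each DMSO library and above CLOCK, PER3 and NR1D1 in each SNS-032 library. CIART, a further repressor of the CLOCK and BMAL1 pair, was at 0.21, 0.14 and 0.18 FPKM with DMSO and at 0.65, 0.62 and 0.12 FPKM with SNS-032, so that the groups overlapped and it was not tested. Over all genes tested, 39.9% were higher and 49.3% lower, shares to be read beside the counts of repressors that follow. Of the 8 repressors of the CLOCK and BMAL1 pair, 6 were tested, all of them members. Of these, 3 were higher and 3 lower around a median of 0.35 on the log2 scale. That median was −0.48 with 7 tested, 3 higher and 4 lower, when each library was rescaled to the same total, BHLHE41 then passing the limit on low values. With the libraries shifted to equal medians, 3 of 6 tested were higher and 1 lower, with a median of 0.65. BHLHE40, which had to differ, is 1 of the 3 higher.

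NFIL3, the D-box repressor that is also needed for natural killer cells in mice, changed little. It was at 10.59, 10.51 and 10.45 FPKM with DMSO and at 8.89, 8.91 and 9.83 FPKM with SNS-032. The groups did not overlap, with a fall from 10.5 ± 0.0702 to 9.21 ± 0.537 FPKM (SD, n = 3 each), 1.14-fold. The log2 fold change of −0.18 (standard error 0.061, adjusted p = 0.0169 from limma) was close to the median of all genes, −0.14, and it turned to 0.12 with the libraries shifted to equal medians (adjusted p = 0.0812 from limma). NFIL3 lies on chromosome 9 from 91409045 to 91423862 (GRCh38, GENCODE 29). Of the activators at the same D-box sequences, DBP and TEF fell, while HLF stayed near 0 FPKM. DBP, itself a classical target of CLOCK and BMAL1, was at 7.09, 8.32 and 7.56 FPKM with DMSO and at 1.78, 2.27 and 0.76 FPKM with SNS-032, a log2 fold change of −1.78 (standard error 0.197, adjusted p = 1.9e-05 from limma). TEF fell by 0.42 on the log2 scale, from 2.78 to 1.83 FPKM, a call that was lost with the libraries shifted to equal medians (adjusted p = 0.201 from limma). HLF was at 0.01 FPKM or less with DMSO and at 0.07 to 0.09 FPKM with SNS-032. Its SNS-032 libraries thus lay above its DMSO libraries, but it was too low to be tested. All 3 tested of the 4 D-box factors, NFIL3 included, were thus lower, beside 49.3% of all genes tested, and 1 of them was with equal medians.

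The proteins that modify and degrade PER and CRY were split as well. Of 20 kinases, phosphatases and ubiquitin ligases tested of 23 listed, 5 were higher, 10 lower and 5 not called, with a median log2 fold change of −0.18. With the libraries shifted to equal medians, 10 were higher and 9 lower, so that the direction of this group depends on the scaling. CSNK1D, a kinase that phosphorylates PER proteins, fell from 33.0 to 17.1 FPKM, GSK3A from 42.3 to 21.6 FPKM and the phosphatase subunit gene PPP1CA from 245 to 133 FPKM. The largest rises were those of FBXW7, a ubiquitin ligase subunit that targets REV-ERB alpha among many proteins, from 7.20 to 28.6 FPKM, and of PPP2CA, a phosphatase subunit, from 70.8 to 202 FPKM. GSK3B rose from 8.09 to 11.97 FPKM. Of 12 partners found in PER and CRY complexes, 2 were higher, 9 lower and 1 not called, with a median of −0.57, and with equal medians 3 were higher and 8 lower. That 11 of 12 were called is near the 89.2% called over all genes tested. Of all genes tested, 39.9% were higher and 49.3% lower, shares to be read beside both lists. WDR5, a histone methylation cofactor, rose from 36.8 to 58.8 FPKM, and DDX5, an RNA helicase, had a log2 fold change of 0.10, a call that was lost when each library was rescaled to the same total. CBX3, a heterochromatin protein, fell from 109.5 to 47.8 FPKM, TIPIN, which binds TIMELESS, from 24.4 to 11.6 FPKM, and GTF2I, a general transcription factor, from 217 to 109 FPKM.

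Genes of the cAMP, calcium, stress and glucocorticoid pathways that act on PER1, some of them targets of the glucocorticoid receptor, changed in both directions. So did genes downstream of the clock. Of 16 genes tested of 19 in the input list, 4 were higher and 10 lower (median log2 fold change −0.37), and with equal medians 5 were higher and 8 lower. Over all genes tested, 39.9% were higher and 49.3% lower, shares to be read beside this list and the outputs below. NR3C1, the glucocorticoid receptor, rose from 70.9 to 169 FPKM, its target TSC22D3 from 29.5 to 60.9 FPKM and ATF4 from 411 to 804 FPKM. Another target of that receptor, FKBP5, fell from 52.8 to 14.8 FPKM, ATF1, a factor that binds cAMP response elements, from 21.8 to 6.39 FPKM and SIK3, a kinase that restrains CREB coactivators, from 6.72 to 2.87 FPKM. Of 11 clock-controlled output genes tested of 15 listed, 4 were higher and 6 lower, with a median of −0.42, and with equal medians 5 were higher and 5 lower. NAMPT, which makes NAD from nicotinamide, fell from 15.8 to 3.18 FPKM, and ALAS1, which starts heme synthesis, from 16.2 to 4.19 FPKM. NOCT, a phosphatase of NADP known for its rhythmic expression, rose from 7.91 to 17.7 FPKM, and KLF10 and CDKN1A had the highest log2 fold changes of the list, 6.31 and 3.26.

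**Figure D3:**
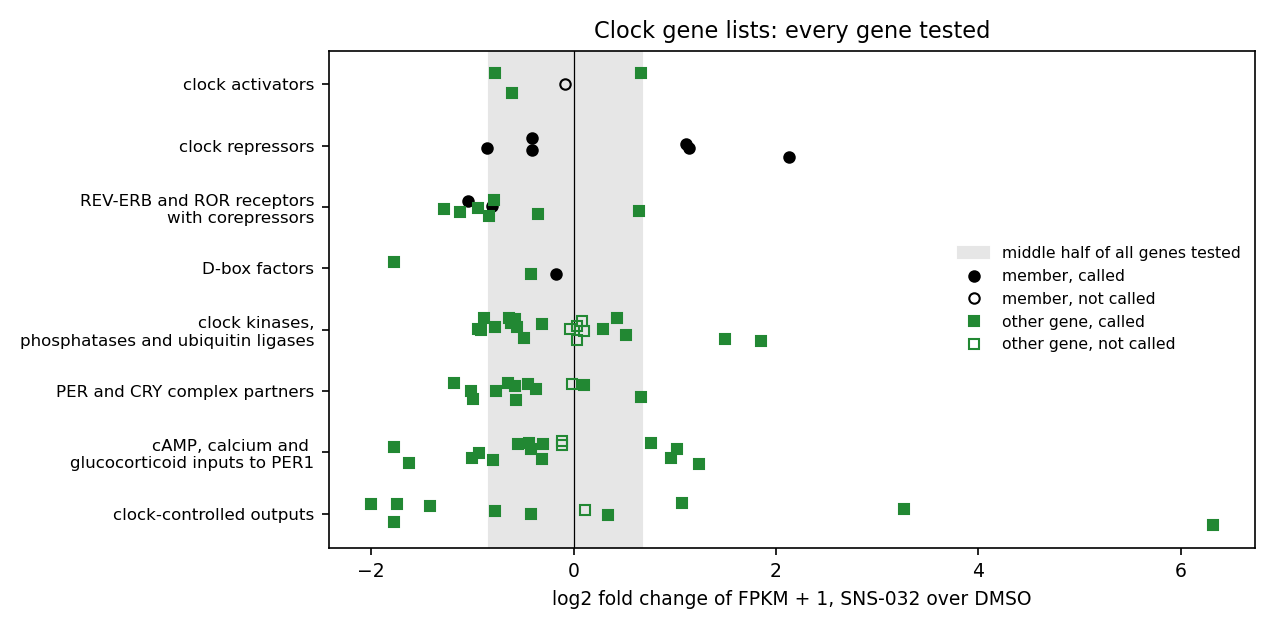
Log2 fold change of FPKM + 1, SNS-032 over DMSO, of every tested gene of 8 clock gene lists, black circles for the 10 clock genes and green squares for other genes, filled where the adjusted p from limma was under 0.05. The gray band spans the quartiles of all genes tested, −0.84 to 0.68, and each list except the D-box factors held called genes on both sides of 0, as 4 higher and 6 lower among the outputs.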

How the data were processed

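RNA of 6 REH libraries, 3 with SNS-032 and 3 with DMSO, was sequenced. According to the study's methods, Bowtie2 and HISAT served for mapping and RSEM for quantification. HISAT2 2.0.4 and GRCh38.p12 stand in the submitters' processing notes, and the strand setting is not given in the sources used here. The authors deposited FPKM with 2 decimals for each gene in each library, and 3 columns of their own comparison (a fold change, a p-value and a q-value), which were not used. Without read counts, errors rest on the 3 libraries of each group.

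FPKM were used as log2(FPKM + 1), without further scaling. The 12239 genes whose mean reached 1 FPKM with DMSO or with SNS-032 were tested with limma 3.58.1 in R 4.3.3 (trended, robust, Benjamini-Hochberg adjustment over all genes tested), a test checked on simulated data. Ratios within libraries were compared with two-sided exact permutation tests. Relative depth was read from the smallest FPKM steps of single-transcript genes of 500 to 3000 bases, with a fragment length of 200 bases assumed, and is approximate. Of 92 symbols in 8 lists of clock genes, 89 were matched to the values. Promoters, and motif shares over 35116 promoters, are from RefSeq (GRCh38.p14), and gene models from GENCODE 29.

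The alternatives were a pseudocount of 0.1, no filter, each library left out in turn, a block for the replicate number, rescaling to a total of 1e+06, equal library medians, and limma without trend and robust estimation. All 10 members are named, as are fixed partners (ARNTL, NPAS2, ARNTL2, BHLHE41, RORA, DBP, TEF, HLF, CIART) and genes with expression values whose exons overlap those of a member. From each list, up to 3 rises and 3 falls are named among called genes with at least 5 FPKM and no overlap between groups. RORB is outside this rule and was named after its values were seen. A gene taken by the rule is not reported here. The members and lists were chosen with earlier results of these data known.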

Additional observations from a re-analysis of the deposited data

How the results depend on the processing

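Of the 12 alternatives run, 11 left the clock genes at 3 higher and 6 lower, and shifting the libraries to equal medians gave 4 higher and 3 lower. Under that shift PER1 and PER3 had log2 fold changes of −0.11 and −0.11 and were not called, and CLOCK and NFIL3 turned to 0.22 and 0.12, a movement that follows from the shift itself. Leaving out each library gave 3 higher and 6 lower in each case. The highest adjusted p from limma in those runs was that of NFIL3 among the called genes, 0.04999 without DMSO replicate 1. The change of the PER1 to PER3 ratio, −0.00075 on the log2 scale, is near 0 and had either sign, at 0.0693 with a pseudocount of 0.1 and from −0.08589 to 0.1468 when single libraries were left out (0.08 without DMSO replicate 2, 0.15 without SNS-032 replicate 1). The ratios were recomputed with that pseudocount, with the replicate number as a block and without each library, 8 of the 12 alternatives. The other 13 ratios kept their direction under these 8, and 9 of the 14 moved by more than their spread with that pseudocount, PER1 to PER3 not among the 9.

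With the replicate number as a block, 4862 genes were higher and 5989 lower, against 4882 and 6032 without it, and the clock genes stayed at 3 higher and 6 lower. The values gave no sign that the numbers pair the libraries. Deviations of same-numbered libraries from their group means correlated at −0.119, 0.014 and −0.016 across genes, and not every library correlated best with its own number. With 3 libraries in each group this cannot show that a pairing is absent. Without the filter on low values, 6804 genes were higher and 6312 lower. FPKM without counts leave the counting error of low genes such as BHLHE40 with DMSO unknown, beyond the approximate fragment numbers given.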

Other observations

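The 10 genes differ in size as well as in response. Their spans on the genome reach from 6.2 kb for BHLHE40, which rose most, and 7.9 kb for NR1D1, which fell most, to 102.5 kb for CRY1, which fell, and 119.2 kb for CLOCK, which did not pass the test. Across 11954 genes tested that had a gene model, Spearman's rho between the span and the log2 fold change was −0.03, a description across genes that share 6 libraries and are not independent replicates. Genes called higher had a median span of 28.3 kb and genes called lower of 31.8 kb.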
